A study of Homo sapiens with 19 samples.

Results

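A pair of RNA-seq samples of one inducible human embryonic stem cell (hESC) line were compared, H1-EED-/-/EED-OE cells kept with doxycycline (DOX) and the same line at day 8 after DOX withdrawal, 2 of the 19 samples of the series. H1 is an established hESC line. In H1-EED-/-/EED-OE cells the endogenous EED gene had been targeted by CRISPR/Cas9 and EED was supplied by a lentiviral transgene that is transcribed only while DOX is present, so that removing DOX switches the remaining EED source off. Both samples share the targeted EED locus and the transgene. They differ in DOX itself as well as in EED, so effects of the drug and of EED loss cannot be told apart in this pair. The labels do not say whether clone, culture time and harvest were the same. The labels name day 8 as the earliest time point, followed by days 12, 16, 20, 24 and 28, each with 1 sample. The title of the DOX sample carries a day 28 tag, while all its other labels give +DOX, which was followed here. Beside the pair stand WT H1 cells and EED-/- H1 cells, a line with permanent EED deletion, with 2 samples each. No label gives DOX for these samples.

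EED is a core subunit of polycomb repressive complex 2 (PRC2), in which EZH1 or EZH2 methylates histone H3 at lysine 27 (H3K27me3) and EED binds that mark and allosterically activates the enzyme. PRC1, a second polycomb complex, is recruited to many of the same sites, often CpG-rich starts of genes for developmental transcription factors. In hESCs such genes are typically kept silent by the mark until the cells differentiate.

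Levels are TPM, a length-corrected share of all transcripts that sums to the same total in every sample. Ratios are given as log2 of (TPM + 1) at day 8 over (TPM + 1) in DOX, and a gene was tested for size where it reached a TPM of 1 in either sample, which 16073 genes did. With 1 sample on each side there is no test and no p-value for this pair. A gene was counted as higher or lower where the ratio reached 3-fold, or 1.585 on the log2 scale. The added 1 makes ratios of weakly expressed genes smaller than those of their TPM.

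EED had a TPM of 109 in DOX and 18.3 at day 8, 5.68-fold lower on the TPM + 1 scale. WT H1 cells had 17.3 and 21.96, so the day 8 level lay between the WT H1 samples and DOX stood above all. EED-/- H1 cells had 14.2 and 22.4, and limma (a linear model fitted across all genes) gave a log2 fold of −0.12 ± 0.25 (SE, n = 2 per line, adjusted p = 0.71) against WT H1. The gene-level TPM does not separate transcripts of the transgene from those of the targeted locus. At days 12 to 28 EED stayed between 12.6 and 31.6.

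The DOX library had the widest spread of the 19 by base composition. Against the mean of WT H1, the fifth of genes with the lowest GC content was lower in DOX by a median log2 difference of −0.60, and the fifth with the highest was higher by 0.40. Day 8 against WT H1 gave −0.06 and 0.34 for the same gene sets, and the second WT H1 sample against the first gave 0.06 and −0.08. Against the WT H1 mean, the highest GC set minus the lowest was 0.99 in DOX, 0.40 at day 8, 0.62 at day 12 and between −0.20 and 0.50 in the other libraries. At the highest GC content alone day 12 exceeded DOX, by 0.48 to 0.40. Day 8 against DOX ran from 0.58 at the lowest to −0.07 at the highest GC content, with a median of 0.22 over all genes tested. Counts are given below also after the median ratio of each of 20 GC bins was subtracted (GC-centred), an alternative added after the data had been seen.

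At day 8, 528 genes were at least 3-fold higher than in DOX (3.29% of those tested) and 112 at least 3-fold lower (0.697%). After GC centring 379 were higher (2.36%) and 149 lower (0.927%), of which 355 and 99 were counted both ways. At least 2-fold, 2119 were higher (13.2%) and 570 lower (3.55%). Between the 2 WT H1 samples 47 of 15351 genes passed the same fold in either direction (0.306%), and the pairs of the other 5 lines gave 50 in EZH1-/- H1, 65 in SUZ12-/- H1, 317 in EZH2-/- H1, 412 in EED-/- H1 and 1125 in EZH2-/-/EZH1-/- H1 cells. The 640 genes of day 8 against DOX thus exceeded the WT H1 spread but lay inside the range set by replicate pairs of knockout lines. For single genes, 465 of the 528 and 92 of the 112 differed by more than the largest replicate difference of that same gene in any of the 6 lines. As these genes were chosen for a ratio of at least 3-fold, which few genes reach between replicates, high counts follow from the choice. They are not support for single genes. The later days share the DOX sample as control, and gave 540 genes higher and 76 lower at day 12, 725 and 170 at day 16, and 3404 and 1066 at day 28.

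**Figure D1:**
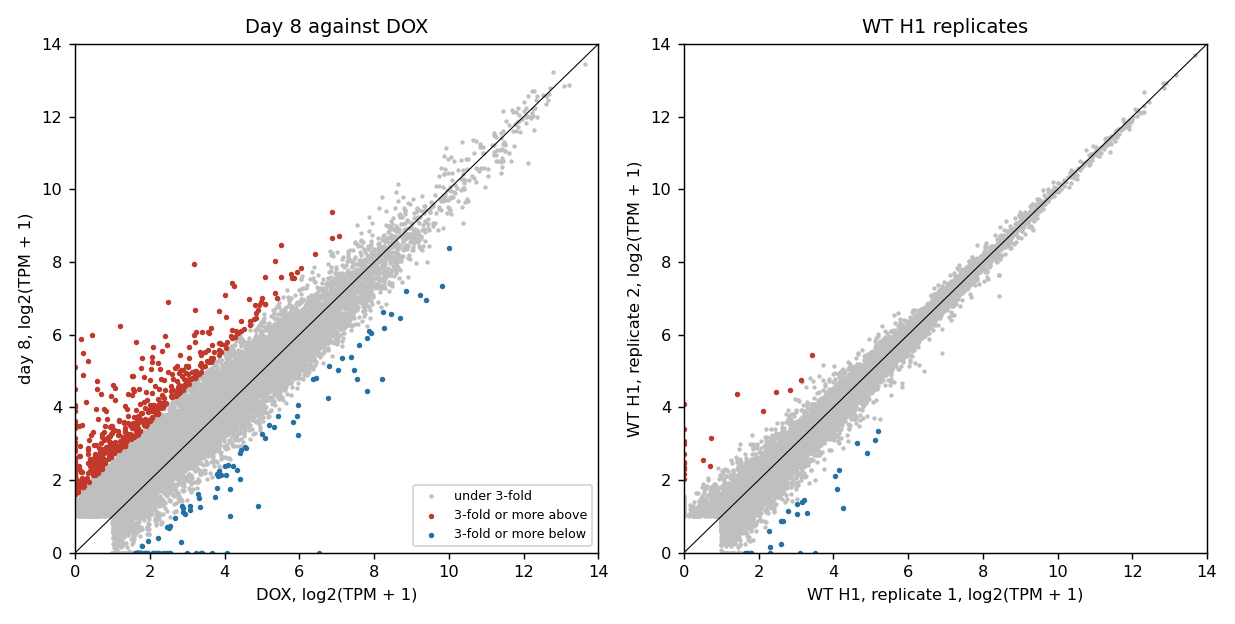
Log2(TPM + 1) of every gene tested, DOX (x) against day 8 (y) on the left and the WT H1 samples on the right, with Y-linked genes and XIST left out. Genes at least 3-fold above the diagonal are red (528 of day 8 against DOX before that omission) and those at least 3-fold below are blue (112), beside 47 of either kind between the WT H1 samples.

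A ratio of 2 single samples can come from either of them, so each gene was placed against WT H1. Of the 528 higher genes, 334 were also at least 2-fold above both WT H1 samples at day 8, 103 had a day 8 level within 2-fold of at least 1 WT H1 sample and a DOX level at least 2-fold below both, and 91 were neither. Of the 112 lower genes, 69 were set apart by day 8, 20 by DOX and 23 by neither. The 103 genes set apart by a low DOX level had a median GC content of 41.7% against 48.8% of all genes tested, and GC centring left 35 genes in that class, 29 of them shared. The 334 set apart by day 8 had 53.1%, and centring left 288, with 269 shared. The account below leads with genes that day 8 set apart.

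Of the 334 genes, 256 were protein-coding and 68 were long noncoding RNAs, and 122 had a TPM under 1 in DOX and in both WT H1 samples. For 155 day 8 was the highest of the 7 samples of the withdrawal series, and for 63 it was at least 2-fold above each of the other 6. The median ratio of the 334 to DOX was 2.00 at day 8, 1.29 at day 12, 0.78 at day 16, 1.30 at day 20, 1.07 at day 24 and 1.37 at day 28. As the genes were chosen on day 8, smaller later medians are not a result about them.

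Pluripotency genes were expressed at day 8, most of them within 2-fold of DOX. POU5F1 (OCT4), the core factor of the pluripotent state, had a TPM of 2422 at day 8, 2916 in DOX, and 2531 and 2428 in WT H1. NANOG had 43.3 at day 8 and 54.1 in DOX, both below the 140.4 and 97.5 of WT H1. SOX2, which pluripotent and neural progenitor cells share, had 417 at day 8 against 131 in DOX and 165 and 219 in WT H1. Its log2 ratio of 1.66 is close to its largest difference between replicates of a line. LIN28A, DNMT3B, TDGF1, SALL4 and L1TD1 had ratios of 0.55, 0.27, 0.12, 1.40 and 0.18, where those of TDGF1 and L1TD1 turn to −0.27 and −0.33 after GC centring. All 8 defining hESC markers were thus present in both samples, with L1TD1 at 193 in DOX and 218 at day 8 against 557 and 634 in WT H1. Of the 22 pluripotency genes listed, 3 were at least 3-fold higher (3.29% of all genes), SOX2 and OTX2 among them, and 0 lower. Their median ratio was 0.33 beside 0.22 for all genes. In EED-/- H1 cells 19 of the 22 were called lower by limma, against 6.09% of all genes.

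Among the largest rises that day 8 set apart were several transcription factors of the early neural plate and forebrain. OLIG3, a basic helix-loop-helix factor of dorsal neural progenitors, had a TPM of 58.1 at day 8 against 0.11 in DOX and 0.05 and 0.22 in WT H1. LHX5, a LIM homeobox gene of the forebrain, had 43.9 at day 8 against 0.15 in DOX and 0 and 0.12 in WT H1. SIX3, a homeobox gene of the anterior neural plate and eye field, had 37.6 against 0.27, with 0.04 and 0.09 in WT H1. At day 12 OLIG3 stood at 15.8, LHX5 at 2.05 and SIX3 at 2.31, and at day 28 at 0.51, 1.05 and 0.14. All were named for their rise at day 8, so lower levels in later single samples are not a result about them. ZIC1, a zinc-finger gene of the dorsal neural tube, had 74.1 at day 8 against 1.32 in DOX and 0.21 and 1.10 in WT H1, and kept 50.1, 34.0, 47.1, 31.5 and 20.0 on the later days. OLIG3 and LHX5 were too low to be tested in EED-/- H1 cells, SIX3 was under 3-fold there, and ZIC1 was called higher, at 23.6 and 26.5 (log2 fold 4.03 ± 0.33, SE, n = 2 per line, limma adjusted p = 4.58e-06).

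Long noncoding RNAs next to these genes were high in the same sample. LHX5-AS1 had 21.7 at day 8 against 0.50 in DOX and 0 in both WT H1 samples. It overlaps the start of LHX5 on the other strand (chr12:113471981-113480636 against chr12:113462033-113472280, GRCh38), and since no strand-marking kit is named, reads of the pair cannot be told apart. RP11-89K21.1, on chr2:44921077-44939199 beside SIX3 (chr2:44941702-44946071), had 28.7 at day 8 against 0.16 in DOX. At day 12 LHX5-AS1 had 1.02 and RP11-89K21.1 had 2.59.

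The Iroquois homeobox genes, patterning factors of neural plate, heart and limb, were grouped after their values had been seen. Of 6 genes 5 were tested, and 4 were at least 3-fold higher at day 8 (3.29% of all genes) and 0 lower. IRX1, IRX4 and IRX5 reached a TPM of 1 at day 8 alone, so the filter fixed their direction. IRX1 had 62.4 against 0.37 in DOX and 0.48 and 1.30 in WT H1, IRX2 had 101 against 8.23, IRX5 13.8 against 0.77 and IRX3 14.3 against 2.85. IRX4 (2.30 against 0.72) and IRX6 (0.91 against 0.79) stayed under 3-fold. C5orf38, a transcript near IRX2 on chromosome 5, went from 2.09 in DOX to 55.1. The summed TPM of the 6 genes was 10.7 and 25.5 in WT H1, 13.7 in DOX, 195 at day 8 and 65.9 at day 12. In EED-/- H1 cells it was 17.9 and 29.5, and limma called 2 of the 6 higher there, against 16.2% of all genes.

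Of the 17 neural ectoderm genes listed, 13 were tested and 5 were at least 3-fold higher (38.5%, beside 3.29% of all genes) with 0 lower. Beside ZIC1, LHX5 and SIX3 these were SOX1, a marker of committed neuroectoderm (9.04 against 0.40), and PAX6, a factor of eye and forebrain (5.23 against 0.48). All 5 but ZIC1 reached a TPM of 1 at day 8 alone, so the filter fixed their direction. LHX2, a LIM homeobox gene of eye and forebrain, was past 2-fold (2.77 against 0.27). NES, which neural stem cells and hESCs share, had 84.3 against 62.5. PAX3, PAX7, HES5, NEUROG2 and GFAP, genes of neural crest, later progenitors, neurons and glia, were all under a TPM of 0.60 at day 8. The list was thus uneven, with anterior neural plate genes high and later neural genes near 0.

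Other lineage lists also had members past 3-fold higher at day 8, beside 3.29% of all genes. Of these members LHX1, GATA4, CXCR4, TBX5, TAL1 and TFAP2A reached a TPM of 1 at day 8 alone, so the filter fixed their direction. Among primitive streak genes LHX1, a LIM homeobox gene that anterior streak and kidney also use, was the 1 of 7 tested past 3-fold, at 25.6 against 0.51. The defining streak genes were near 0 at day 8: T (brachyury) 0.68, MIXL1 0.16, EOMES 0.15 and GSC 0.78, before reaching 125, 303, 115 and 28.8 at day 16. Of 7 endoderm genes tested 3 were higher, GATA4 (3.67 against 0.52), HHEX (7.21 against 1.11) and CXCR4 (5 against 0.83), while SOX17 at 0.68, FOXA2 at 0.27 and GATA6 at 0.08 were near 0. Of 7 genes of mesoderm, blood and endothelium 2 were higher, TBX5, a T-box factor of heart and forelimb (10.7, listed at 0 in DOX), and TAL1 (2.36 against 0.05), with PECAM1 listed at 0, CD34 at 1.29 and HAND1 at 0.37. Of 7 trophoblast and amnion genes 4 were higher: KRT7 (45.7 against 13.8), TFAP2A (3.68 against 0.11), TFAP2C (21.7 against 3.77) and IGFBP3 (51.4 against 4.53), with CDX2 and CGA listed at 0 and ISL1 at 0.13. In bulk RNA a small share of cells with a high level and a low level in every cell cannot be told apart.

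BMPs signal through type I and II receptors to SMAD1, SMAD5 and SMAD9 and induce ID, MSX and inhibitory SMAD genes, whereas NODAL and activin signal through SMAD2 and SMAD3 and sustain pluripotency in primed hESCs. Of 13 BMP ligands 6 were tested. BMP7 alone was past 3-fold (3.29% of all genes), with 36.8 at day 8 against 11.1 in DOX and 8.19 and 6.63 in WT H1. BMP2 had 5.43 against 1.18, a log2 ratio of 1.56 that falls just short, and 1.51 and 1.79 in WT H1. BMP4, the ligand that drives hESCs out of pluripotency, had 7.33 against 3.77, beside 2.50 and 3.25, and GDF6 had 1.11 against 0.24. Day 8 was above DOX and both WT H1 samples for all 4 ligands. EED-/- H1 cells had 46.5 and 49.9 of BMP7, 48.4 and 45.9 of BMP2, and 92.5 and 207 of BMP4. BMP6 had 2.74 against 1.46, BMP8B 1.2 against 0.32, BMP8A 0.28 against 0 and GDF7 0.30 against 0.21, while BMP5 stood at 0.16 and BMP10, BMP15, GDF2 and GDF5 were listed at 0 at day 8. In EED-/- H1 cells 8 of the 10 ligands tested were called higher, against 16.2% of all genes.

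The BMP targets differed in direction at day 8 against DOX. ID2, an inhibitor of basic helix-loop-helix factors, had 356 against 44.4 in DOX and 34.2 and 53.1 in WT H1, and ID4, its neural paralogue, 62.0 against 4.30, with 3 and 3.07 in WT H1. MSX2, a homeobox target, had 7.38 against 1.52. ID1 was higher by 0.90 on the log2 scale (319 against 171), and ID3 was lower by −1.11 (107 against 232). The inhibitory SMAD7 was lower by −1.57 (4.94 against 16.6), SMAD6 differed by 0.10, BAMBI by −0.16, SMAD9 by 0.62 and MSX1 by 0.54. Thus 3 of 9 tested targets were at least 3-fold higher (3.29% of all genes), 0 lower, and ID3 and SMAD7 were past 2-fold in the other direction. ID3 had 154 and 114 in WT H1, with DOX above both and day 8 close to the second. The ratio of SMAD7 lies inside its largest difference between replicates of a line, 1.62, which is that of WT H1 (23.8 and 7.08). Limma called neither ID2 (log2 fold 0.74 ± 0.52, SE, adjusted p = 0.26) nor ID4 (1.58 ± 0.48, adjusted p = 0.017) in EED-/- H1 cells at n = 2 per line, but MSX2 with 4.78 ± 0.31 (adjusted p = 9.68e-07).

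The NODAL side was low at day 8. NODAL had 1.85 against 8.88 in DOX and 12.3 and 8.16 in WT H1. LEFTY1, a NODAL target and feedback inhibitor, had 1.45 against 28.5, with 35.7 and 9.15 in WT H1, and LEFTY2 had 3.50 against 12.9, with 16.4 and 7.4. All 3 were at their lowest among DOX, day 8 and WT H1, and each was high again at day 12, with 85.0, 72.0 and 23.5. LEFTY1 varied widely between replicates elsewhere, by up to 3.38 on the log2 scale within a line, and the ratio of LEFTY2, −1.63, lies inside its largest such difference of 1.97. CER1, another secreted inhibitor of NODAL, BMP and WNT, stood at 0.54 against 2.12. INHBE, a subunit of activin E, had 1.92 against 12.3 in DOX and 12.7 and 13.6 in WT H1, and stayed between 0.65 and 1.69 at all later days. Of 7 tested activin, NODAL and TGF-beta ligands 2 (NODAL and INHBE) were at least 3-fold lower and 1 higher, TGFB2 with 3.72 against 0.31. TGFB2 reached a TPM of 1 at day 8 alone, so the filter fixed its direction. Of 13 tested antagonists 2 (LEFTY1 and LEFTY2) were at least 3-fold lower and 1 higher, FST (follistatin), which binds activin and BMPs, at 45.8 against 4.03. Over all genes 0.697% were lower and 3.29% higher by that fold. CHRD (chordin) had 3.16 against 0.46. FST went on to 494 at day 28 and was 477 and 324 in EED-/- H1 cells (log2 fold 5.78 ± 0.40, SE, n = 2 per line, limma adjusted p = 1.47e-06). Of 14 tested receptors and SMADs 0 were past 3-fold, and TGFBR1 (16.3 against 5.87) and ACVR2B (19.4 against 8.50) were past 2-fold. For both, day 8 was near the WT H1 samples (17.2 and 19.1 of TGFBR1, 15.5 and 16.1 of ACVR2B) and DOX below them.

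**Figure D2:**
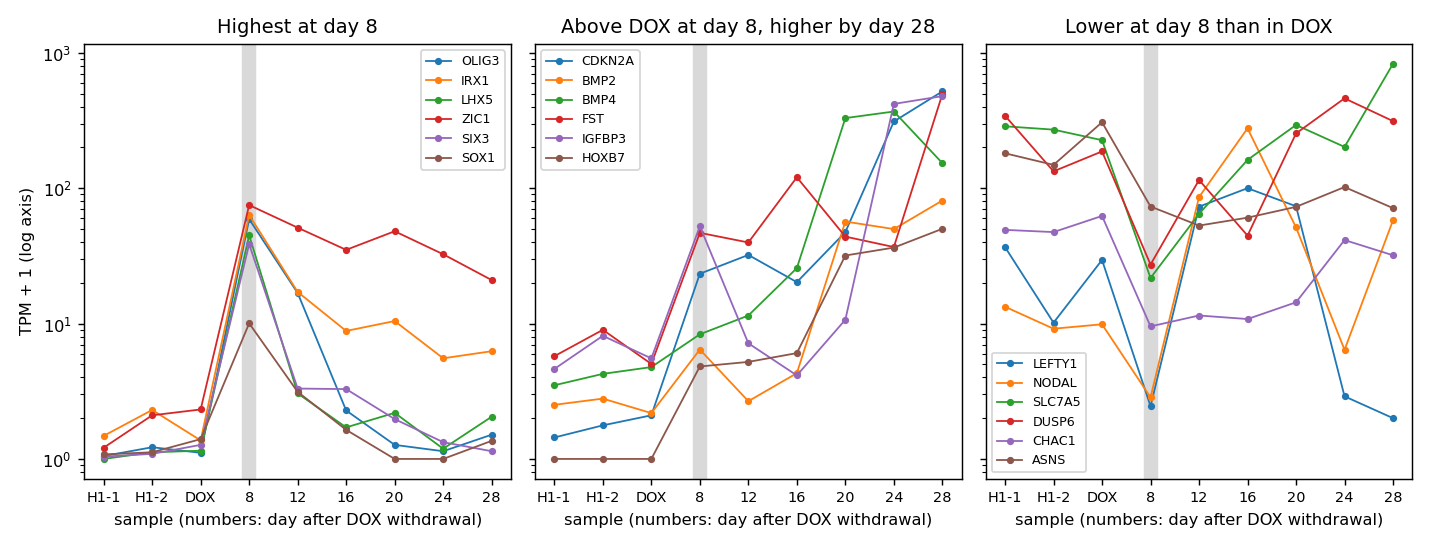
TPM + 1 on a log axis of 18 genes in WT H1 (H1-1, H1-2), DOX and days 8 to 28, 1 sample each, with day 8 shaded. On the left the neural genes peak at day 8 (OLIG3 at 58.1), in the middle day 8 lies above DOX and below day 28 (CDKN2A 22.3 and 518), and on the right day 8 lies below DOX (SLC7A5 20.7 and 225).

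WNT ligands and secreted modulators had 5 of 17 tested genes at least 3-fold higher, against 3.29% of all genes, and 0 lower. FRZB, a secreted WNT binder, had 32.9 against 2.42, and the nuclear effector LEF1 had 5.37 against 0.60. AXIN2, a direct target and feedback inhibitor of WNT signalling, had 21.9 against 6.29 and 8.94 and 12.7 in WT H1, with DOX below both WT H1 samples and day 8 above them. WNT4 (2.56 against 0.12) and NOTUM (2.70 against 0.10) were the other 2. LEF1, WNT4 and NOTUM reached a TPM of 1 at day 8 alone, so the filter fixed their direction. WNT5A (3.98 against 0.96), WNT8A (1.66, listed at 0 in DOX) and WNT10B (1.43 against 0.13) were past 2-fold, and WIF1 was past 2-fold lower (1.14 against 3.76).

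Genes that are classical polycomb targets were already detectable. CDKN2A, which encodes the cell cycle inhibitors p16INK4a and p14ARF, had a TPM of 22.3 at day 8 against 1.10 in DOX and 0.44 and 0.77 in WT H1. It was at 31.1 at day 12 and 518 at day 28, and at 563 and 445 in EED-/- H1 cells (log2 fold 8.30 ± 0.55, SE, n = 2 per line, limma adjusted p = 1.13e-06). The neighbouring CDKN2B stayed at 0.40 at day 8 and reached 362 at day 28. CDKN1C (p57) had 51.5 against 11.7, CDKN2D 4.91 against 1.09 and CDKN1A (p21) 30.4 against 45.8. For CDKN2D the WT H1 samples had 3.51 and 4.93, so day 8 lay between them and DOX below both. Thus 2 of 5 tested inhibitors were past 3-fold higher (3.29% of all genes). Of 39 HOX genes 8 were tested, each with a TPM of 1.00 to 3.82 at day 8 and listed at 0 in DOX: HOXA7, HOXB2, HOXB3, HOXB7, HOXC4, HOXD8, HOXD11 and HOXD13. All 8 reached a TPM of 1 at day 8 alone, so the filter fixed that each was at least 2-fold higher. The rest of the 39 were under a TPM of 1 in both samples. HOXB2, HOXB3 and HOXB7 were past 3-fold on the TPM + 1 scale. The summed TPM of all 39 was 0.06 and 0.42 in WT H1, 1.23 in DOX and 20.7 at day 8, and limma called 35 of 36 tested higher in EED-/- H1 cells, against 16.2% of all genes. HOXB7 at 3.82 was the highest of them and had 49.1 at day 28.

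The polycomb machinery itself differed in a few subunits. EZH2 (48.9 against 36.3), SUZ12 (26.9 against 14.97), RBBP4 (216 against 113) and EZH1 (17.4 against 15.9) were under 2-fold, and for the first 3 DOX was below both WT H1 samples. EPOP (named C17orf96 in the data), an elongin-binding PRC2 accessory subunit, was the 1 of 8 accessory genes past 3-fold (3.29% of all genes). It had 10.7 against 2.17 and 1.44 and 1.62 in WT H1. PRC1 subunits were grouped after their values had been seen, and 3 of 16 were at least 3-fold higher, beside the 3.29% of all genes. Among them CBX8 reached a TPM of 1 at day 8 alone, so the filter fixed its direction. BMI1 (PCGF4), a known repressor of the CDKN2A locus, had 36.9 against 3.14 in DOX and 2.12 and 2.99 in WT H1. CBX8, a chromodomain reader of H3K27me3, had 10.3 against 0.96. Both were called higher in EED-/- H1 cells, BMI1 by 4.15 ± 0.45 and CBX8 by 3.01 ± 0.39 on the log2 scale (SE, n = 2 per line, limma adjusted p = 2.83e-05 and 0.000101). RNF2, PCGF2 and CBX2 had ratios of 0.75, −0.13 and 0.15.

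Genes with no known role in patterning were also among the largest differences. SERPINB9, an inhibitor of granzyme B, had 245 against 8.03 in DOX and 9.95 and 25.3 in WT H1, and stayed between 80.4 and 710 at the later days. TXNIP, a thioredoxin-binding arrestin-domain protein that limits glucose uptake, had 119 against 4.59, with 6.92 and 5.58 in WT H1, and its relative ARRDC4 had 17.5 against 1.10. Of the 5 arrestin-domain genes tested, a group made after their values had been seen, 3 were past 3-fold (3.29% of all genes). ARRDC3 with 16.3 against 4.43 was the other. Limma called the same 3 genes higher in EED-/- H1 cells, against 16.2% of all genes. The remaining genes of the largest rises were PRPH, an intermediate filament gene of neurons (15.03, listed at 0 in DOX), RP11-203J24.9 (21.7, listed at 0 in DOX, 1.56 and 1.73 in WT H1), and AC009133.21 (15.8, listed at 0 in DOX, 2.48 and 0 in WT H1). AC009133.21 differed by up to 2.91 on the log2 scale between replicates of a line, against a ratio of 4.07.

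On the lower side, genes of amino acid supply stood out. ATF4 is the transcription factor of the integrated stress response, and its targets include enzymes that make serine, glycine and asparagine, amino acid transporters and tRNA synthetases. SLC7A5, the light chain of the LAT1 transporter of large neutral amino acids, had 20.7 at day 8 against 225 in DOX and 286 and 270 in WT H1, a 10.4-fold difference. CHAC1, a glutathione-degrading ATF4 target, had 8.53 against 61.4 in DOX and 48.2 and 46.4 in WT H1. ASNS (asparagine synthetase) had 72.2 against 306, and 180 and 148 in WT H1. For all 3 genes day 8 was below every one of DOX and WT H1, and DOX itself exceeded WT H1 for CHAC1 and ASNS.

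Of 15 tested genes of the ATF4 list 5 were at least 3-fold lower (33.3%, beside 0.697% of all genes) and 0 higher, and 9 were at least 2-fold lower. The other 3-fold differences were SHMT2, the mitochondrial serine hydroxymethyltransferase (87.6 against 413), TRIB3, a pseudokinase (3.82 against 19.2), and PHGDH, the first enzyme of serine synthesis (337 against 1020). ATF5, PSAT1, SESN2 and MTHFD2 were past 2-fold with ratios of −1.50, −1.41, −1.36 and −1.11. DDIT4 went the other way at 1.09 (154 against 72.0), and DDIT3 (CHOP) did not differ, with 4.67 and 4.68. ATF4 mRNA had 472 against 702, with 749 and 816 in WT H1. The median ratio over all 16 members was −1.24, and their summed TPM was 2591 and 2494 in WT H1, 3112 in DOX and 1357 at day 8. In EED-/- H1 cells limma called 2 of the 16 higher and 1, PHGDH, lower, against 16.2 and 6.09% of all genes.

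The cytosolic aminoacyl-tRNA synthetases, which charge tRNAs for translation, were grouped after GARS and others had been seen among the lower genes. Of 20, 5 were at least 3-fold lower (0.697% of all genes) and 9 at least 2-fold lower (3.55% of all genes), and 16 had a ratio below 0. GARS had 122 against 663 in DOX and 354 and 345 in WT H1, YARS 58.7 against 223, WARS 52.1 against 192, AARS 67.6 against 233 and CARS 26.8 against 86.0. DARS went the other way, with 177 against 83.0. Their summed TPM of 2174 at day 8 was below the 3973 of DOX and the 3779 and 3822 of WT H1, and it stayed at 2423 to 2689 on days 12 to 28 and at 2467 and 2617 in EED-/- H1 cells, where limma called 0 of the 20. SLC3A2, the heavy chain of LAT1 (98.0 against 301), and PCK2, mitochondrial PEP carboxykinase (31.7 against 176), outside the lists and named after their values had been seen, were lower as well.

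**Figure D3:**
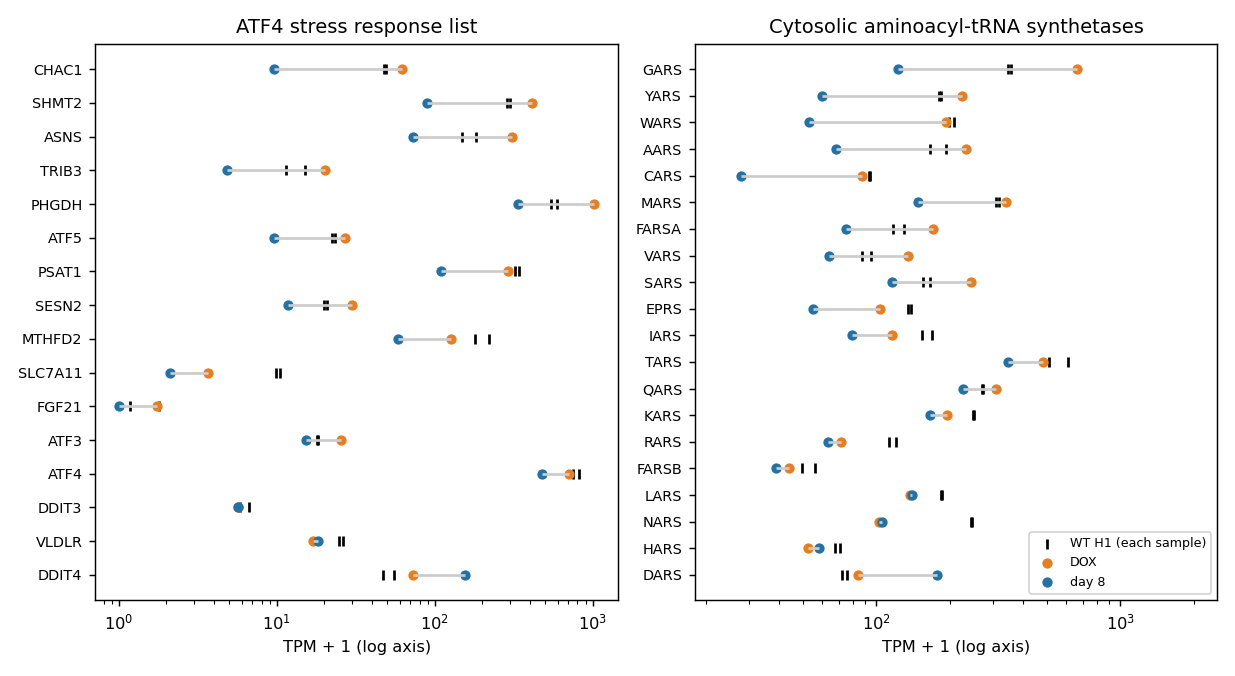
TPM + 1 on a log axis of the 16 ATF4 list genes (left) and 20 cytosolic aminoacyl-tRNA synthetases (right) in DOX (orange), day 8 (blue) and each WT H1 sample (ticks), ordered by the ratio. Most blue points lie left of the orange point and of the ticks, with DDIT4 and DARS as the clearest exceptions.

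Promoters of 2 lower genes are shown because a sequence element was more frequent in the lower genes than in all. Windows from 250 bases before to 50 after each RefSeq start (GRCh38.p14) were matched by symbol to 18743 of the 33382 genes, and 40 of the 69 lower genes that day 8 set apart had at least 1. The ATF4-type element was searched as TGATGNAAN on both strands. At least 1 window of 9 of the 40 genes held it (22.5%), against 306 of 11882 genes tested (2.58%) and 5 of 196 higher genes that day 8 set apart (2.55%). Counted by windows it was 9 of 64 (14.1%) against 1.89% of those of all tested genes and 2.90% of all windows matched. The 9 genes were CHAC1, GARS, ASNS, FBLL1, ITGB5, AARS, JDP2, CARS and SLC3A2, of which 3 are tRNA synthetases. In the ATF4 list 4 of 14 genes with a window held it (28.6%), and TRIB3, PHGDH, PSAT1 and ATF5, all lower at day 8, did not. The element was chosen with these values known, and a match is not a measured site. In the lines below, which read 5′ to 3′ along the gene's strand, capitals mark it, in CHAC1 (chr15:40953221-40953520, plus strand) as the reverse complement and in ASNS (chr7:97872359-97872658, minus strand) as searched.
CHAC1: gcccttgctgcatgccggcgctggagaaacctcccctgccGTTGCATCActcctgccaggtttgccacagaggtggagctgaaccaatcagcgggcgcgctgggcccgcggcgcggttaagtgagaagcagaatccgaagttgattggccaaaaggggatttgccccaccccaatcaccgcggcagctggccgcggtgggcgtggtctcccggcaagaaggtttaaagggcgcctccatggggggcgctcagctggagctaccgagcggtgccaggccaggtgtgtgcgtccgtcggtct
ASNS: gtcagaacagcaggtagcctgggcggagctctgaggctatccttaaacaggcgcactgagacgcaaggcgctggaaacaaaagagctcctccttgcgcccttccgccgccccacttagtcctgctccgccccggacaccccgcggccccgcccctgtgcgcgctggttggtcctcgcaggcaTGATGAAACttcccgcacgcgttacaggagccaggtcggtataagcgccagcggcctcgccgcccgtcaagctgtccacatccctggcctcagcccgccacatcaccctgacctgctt

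The promoter of TXNIP (chr1:145996530-145996829, minus strand) is given for a gene among the largest differences. TXNIP and ARRDC4 are known targets of the glucose-sensing MondoA and ChREBP factors, whose carbohydrate response element, searched on both strands, was held by a window of 0.985% of genes tested and of 1.02% of the higher genes that day 8 set apart. The share in these genes was thus close to the background. Capitals mark the 1 match.
TXNIP: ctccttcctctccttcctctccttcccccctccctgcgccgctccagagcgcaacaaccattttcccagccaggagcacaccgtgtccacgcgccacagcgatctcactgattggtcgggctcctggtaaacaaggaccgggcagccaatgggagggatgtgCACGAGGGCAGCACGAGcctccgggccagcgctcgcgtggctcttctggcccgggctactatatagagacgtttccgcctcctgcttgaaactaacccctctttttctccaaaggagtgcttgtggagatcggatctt

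Since polycomb sites are typically rich in CpG, that feature was counted in the higher genes. At least 10 CpGs lay in the first listed window of 166 of 196 higher genes that day 8 set apart (84.7%), against 87.4% of genes tested, so the share was close to the background. The medians were 24 and 26 CpGs. The windows of OLIG3 (chr6:137494345-137494644, minus strand) with 10 CpGs and ZIC1 (chr3:147409115-147409414, plus strand) with 26 show how widely 2 of the most different genes varied, with CG in capitals.
OLIG3: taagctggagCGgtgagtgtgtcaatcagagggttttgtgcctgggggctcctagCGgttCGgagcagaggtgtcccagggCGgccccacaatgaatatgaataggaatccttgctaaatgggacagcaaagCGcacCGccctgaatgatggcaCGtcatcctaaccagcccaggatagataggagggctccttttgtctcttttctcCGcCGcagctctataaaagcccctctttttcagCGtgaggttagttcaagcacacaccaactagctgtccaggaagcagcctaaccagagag
ZIC1: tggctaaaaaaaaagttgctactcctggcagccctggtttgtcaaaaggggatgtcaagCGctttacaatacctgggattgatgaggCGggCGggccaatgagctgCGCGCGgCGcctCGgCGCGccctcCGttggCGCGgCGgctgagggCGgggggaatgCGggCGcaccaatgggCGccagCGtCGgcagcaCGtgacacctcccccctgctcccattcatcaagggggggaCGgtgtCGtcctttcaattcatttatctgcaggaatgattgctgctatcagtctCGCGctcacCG

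Some genes under FGF and ERK control were lower at day 8. DUSP6, the phosphatase that switches ERK off, had 26.3 against 186 in DOX and 342 and 132 in WT H1, and SPRY4, a feedback inhibitor, 12.5 against 60.3, with 93.2 and 57.7. The ratio of SPRY4, −2.18, does not exceed its largest difference between replicates of a line, 2.19. ETV4, an ETS factor downstream of FGF, had 40.9 against 166. Of 13 genes of FGF and ERK feedback, 3 were at least 3-fold lower (0.697% of all genes) and 5 at least 2-fold lower (3.55%). They were grouped after these values had been seen. FGFR3 was higher at 49.2 against 7.30, and 9 of the 13 had a ratio below 0. SPRY2 (24.7 against 29.8) and SPRED1 (9.66 against 8.05) hardly differed, and DUSP6 varied by up to 1.99 on the log2 scale between replicates of a line. The immediate early list was split, with EGR1 higher (118 against 30.5) and DUSP6 and SPRY4 lower past 3-fold, and JUN, JUNB and EGR2 higher and MYC, IER3 and FOSB lower past 2-fold. FOSB had 17.7 in DOX and 6.73 at day 8, above the 0.69 and 0.57 of WT H1. IER3 had 117 in DOX and 41.9 at day 8, between the 55.8 and 24.6 of WT H1.

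THY1, a surface glycoprotein of hESCs, had 160.02 against 909 in DOX and 646 and 468 in WT H1, before 769 at day 12. Of the other 9 names among the 15 largest falls, 8 were long noncoding RNAs and RP11-529K1.3 is annotated as protein-coding. RP11-3P17.5 was listed at 0 at day 8 and 91.5 in DOX, but it was also at 0 in both EED-/- H1 samples and at day 12, and its replicates differed by up to 9.25 on the log2 scale. RP11-138I1.4 had 26.3 against 296, and its replicates differed by up to 5.48, more than its ratio of −3.44. CTC-250I14.3, RP11-212P7.3, RP11-529K1.3, RP11-386I14.4, RP11-923I11.3 and AC002116.8 were listed at 0 at day 8 with 4.62 to 15.8 in DOX, and CTD-2396E7.10 had 0.24 against 6.14.

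Metabolic lists had smaller differences. In the hypoxia and glycolysis list 3 of 17 were at least 3-fold higher (3.29% of all genes). These were BNIP3, a mitophagy receptor (191 against 32.9), EGLN3 (36.6 against 9.27) and PFKFB4 (29.1 against 7.08). LDHA (889 against 296) was just short at 1.58. LDHA stood at 590 and 612 in WT H1, above DOX and below day 8, and the list's median of 0.95 became 0.58 after GC centring. In the cholesterol synthesis list 0 of 16 passed 3-fold and 2, FDFT1 (161 against 353) and MVD (31.7 against 70.0), were past 2-fold lower, with a median of −0.51. Its summed TPM was 2149 and 2088 in WT H1, 1406 in DOX and 927 at day 8. No gene of the p53 target (13 tested), heat shock (10), interferon-stimulated (11) or cell cycle (18) lists was past 3-fold, with medians of 0.22, 0.36, 0.00 and −0.12 over all members. HSP90AA1, B2M and CCND1 were past 2-fold higher and PLK1 past 2-fold lower. In the list of naive pluripotency genes TBX3 (3.18 against 0.14) was past 3-fold, in a direction that the filter fixed, as it reached a TPM of 1 at day 8 alone. The 13 mitochondrially encoded genes were not analysed here.

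Of the 103 higher and 20 lower genes set apart by DOX, those with the largest ratios are given here. GRPR (0.95 in DOX, 19.0 at day 8, 12.0 and 7.73 in WT H1), TNMD (0.35, 8.42, 5.97 and 5.56), RP11-703G6.1 (8.11, 62.6, 76.9 and 86.2) and RP11-638I2.6 (listed at 0, 33.8, 23.0 and 12.9) were lowest in DOX among these 4 samples. On the opposite side, beside EED, NPIPA8, AC110615.1, CTD-3193O13.11 and CTD-3214H19.16 had 11.6, 9.28, 16.7 and 4.79 in DOX and at most 1.02 at day 8. AC110615.1 and CTD-3214H19.16 were listed at 0 in both WT H1 samples, and the latter at all later days too.

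EED-/- H1 cells gave a readout that shares no sample with day 8 or DOX. Limma called 3099 genes higher and 1164 lower than WT H1 among 19100 (16.2 and 6.09%). Of the 528 genes higher at day 8, 490 were tested in that fit and 162 were called higher (33.1%) and 32 lower (6.53%), against 14.3 and 7.35% of the 15638 genes tested in both comparisons. Of the 112 lower genes 106 were tested, with 6 called higher (5.66%) and 27 lower (25.5%). After GC centring the shares were 36.0% higher for the higher genes and 19.5% lower and 8.27% higher for the lower ones. In the other direction, the 162 genes were 7.23% of the 2242 genes higher in EED-/- H1 cells that day 8 could show, against 3.29% of all genes tested at day 8. Of the 1150 genes lower in EED-/- H1 cells, 27 (2.35%, against 0.697%) were lower at day 8 and 32 (2.78%) higher. The median log2 fold in EED-/- H1 cells was 0.89 for the genes higher at day 8, −0.69 for the lower (−0.35 after GC centring) and 0.24 for all tested in both.

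Named genes are set side by side here. CDKN2A, FST, BMP7, MSX2, HOXB7, BMI1, ZIC1, TXNIP and SERPINB9 were higher at day 8 and called higher in EED-/- H1 cells. IRX1, IRX2, SIX3, OTX2, TFAP2C, ID2, ID4 and BNIP3 were higher at day 8 and not called there. Neither set is complete: of the genes higher at day 8 and tested there, 33.1% were called higher, against 14.3% of all. SOX2 was higher at day 8 and called lower in EED-/- H1 cells (22.6 and 16.1, log2 fold −3.25 ± 0.46, SE, n = 2 per line, limma adjusted p = 0.000177). NODAL was lower at day 8 and had 34.2 and 38.1 in EED-/- H1 cells (1.75 ± 0.40, adjusted p = 0.00404). SLC7A5 was lower at day 8 and had 396 and 732 in EED-/- H1 cells, without a call (0.95 ± 0.45, adjusted p = 0.097). Spearman's rho across 23497 genes, which are not independent replicates, was 0.944 between day 8 and DOX, 0.968 between the WT H1 samples, 0.944 and 0.939 between DOX and each WT H1 sample, and 0.931 and 0.929 between day 8 and each.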

How the data were processed

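Total RNA was sequenced by the authors from TruSeq libraries, mapped with Bowtie2 to an mRNA reference of GRCh38 and quantified with RSEM, and TPM of 33382 genes were deposited for each sample. The deposited TPM sum to between 999999.2 and 1000001.0, hold no counts, and leave the depth unknown, so that no interval or detection floor is given. The edgeR test that the authors describe needs counts and was not run. Ratios of TPM + 1 were computed at a TPM of at least 1 in either sample and a 3-fold threshold. EED-/- H1 against WT H1 was tested with limma 3.58.1 (R 4.3.3, trend and robust eBayes, log2(TPM + 1), 12 samples of 6 lines, genes reaching a TPM of 1 in 2 or more, called at 3-fold and a Benjamini-Hochberg adjusted p up to 0.01). Nothing in the labels says that samples of a line are separate cultures, so p-values measure the spread between them, which may be technical. Genes named are EED, the 15 largest rises and 15 largest falls set apart by day 8, the 5 largest each way set apart by DOX, BMP ligands and targets, POU5F1, SOX2, NANOG, and members of 26 gene lists past 2-fold, with 393 of 406 genes found, together with genes said to have been grouped after their values were seen. Members and lists were chosen with earlier results of these data known. A Y-linked gene among the 15 rises and a few other genes that the rule names are not reported here. Coordinates, GC content and lengths are from GENCODE 44 (GRCh38), matched for 97.3% of genes, and promoters from RefSeq. Scripts were tested on simulated data. Python 3.11.15, numpy 2.4.6 and pandas 2.3.3 were used.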

Additional observations from a re-analysis of the deposited data

How the results depend on the processing

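Counts against DOX depended on the pseudocount and on the fold: with a pseudocount of 0.1 there were 1494 genes higher and 334 lower at day 8, with 5 there were 121 and 29, and the genes set apart by day 8 numbered 880 and 199, and 86 and 19. With a TPM of at least 5 in either sample 71 genes were lower, and with a fold of 2 there were 2119 higher and 570 lower. With WT H1 in place of DOX as reference 261 were lower with the mean, and 276 to 281 with each single sample. Between the WT H1 samples the count of 47 became 326, 7, 31 and 287 under a pseudocount of 0.1, a pseudocount of 5, a TPM of at least 5 and a fold of 2, and the pairs of EZH2-/- H1, EED-/- H1 and EZH2-/-/EZH1-/- H1 cells gave 317, 412 and 1125. GC centring, which was added after the data had been seen, gave 379 higher and 149 lower genes, and scaling by median ratios moved the median of all genes from 0.22 to 0.07. RP11-703G6.1 had a log2 ratio of −0.38 with the WT H1 mean as reference. Of the 82 named genes past 3-fold, 77 stayed past it in the same direction after GC centring, 78 after scaling, 82 with a pseudocount of 0.1, 46 with 5 and 60 against WT H1. For EED-/- H1 against WT H1, leaving out a sample gave 2505 to 3181 genes higher and 942 to 1106 lower, and a replicate block, with numbers that only number the samples and do not pair them (correlation of deviations 0.041), gave 3114 and 1169. The depth behind a TPM is unknown, and 1 sample on each side leaves no estimate of error for day 8 or DOX.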
